A study of Mus musculus with 4 samples.

Results

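Mcpt8, cathepsin G (Ctsg) and the granzymes Gzmb, Gzmc, Gzmd, Gzmf, Gzmg and Gzmn are 8 neighbouring serine protease genes at the end of the mouse mast cell chymase locus on chromosome 14. They were taken by symbol from the platform annotation, which gave each of the 8 genes a probe set of its own, out of 22180 genes with a probe set of 1 symbol. Expression was measured on 4 Affymetrix arrays, 1 for each group, in cells of BALB/c mice, for which the labels name no modified allele. The first group was mast cells of naive mice, isolated from small-intestinal lamina propria and sorted by flow cytometry as FcεRI- and c-Kit-positive. The second was bone marrow-derived mast cells (BMMCs) that spent 6 days on a layer of CHO cells (a Chinese hamster ovary line) carrying mouse Dll1, a ligand of Notch receptors, before c-Kit-positive cells were taken with magnetic beads. The third was BMMCs kept for 6 days with TGF-β1 at 5 ng/ml, and the control was BMMCs kept for 6 days in normal medium. Before that, all BMMCs had been raised from marrow over 3 to 4 weeks in IL-3 (10 ng/ml) and SCF (10 ng/ml). No selection step is named for the TGF-β1 and control cultures, and the number of mice behind each array is not given in the sources used here.

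These proteases are made as inactive precursors, trimmed by cathepsin C and stored in secretory granules on the proteoglycan serglycin. Mast cells use chymases and tryptases from such granules, while granzymes are best known from cytotoxic T cells and natural killer (NK) cells, in which they enter target cells with the help of perforin. Mcpt8 is widely used as a marker of mouse basophils, and cathepsin G is a protease of neutrophil granules and of their promyelocyte precursors. Gzmb cleaves target proteins after aspartate and can start cell death. Gzmd, Gzmf and Gzmg are known from activated NK cells and lymphocytes of the mouse, and Gzmn from mouse testis.

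With 1 array in each group there was no replicate error and no test, so all differences below compare single arrays. Values are log2 and are compared between arrays within a gene, never between genes. Genes for taste, smell and vomeronasal receptors, with 1443 probe sets, gave the background limit of each array as their 95th percentile. The limit was 5.11 on the intestinal array, 5.13 on the Dll1 array, 5.21 on the TGF-β1 array and 5.12 on the control array. Values under the limit were set to the limit, and a gene detected on either of the compared arrays was called higher or lower if it then differed by 2-fold or more. A fold against an array below the limit is a bound, written "at least". A probe set spread was taken from the gap between the log2 differences of a pair of probe sets of 1 gene. It is the standard deviation of that gap over 332 to 352 genes with a pair above background, divided by the square root of 2. The division makes it the spread of a single probe set, smaller than that of the gap. It ran from 0.24 for TGF-β1 minus control to 0.48 for intestinal minus control. That spread is technical and holds no variation between cultures or animals. The 8 mast cell markers Kit, Fcer1a, Ms4a2, Cpa3, Hdc, Cma1, Tpsb2 and Slc18a2 were above background on every array, with a mean of 9.53 in intestinal cells, 11.24 with Dll1, 11.13 with TGF-β1 and 11.36 in control BMMCs. Of these, Cma1, Tpsb2 and Slc18a2 were lower in intestinal than in control cells.

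The 8 genes are all encoded on the minus strand in the RefSeq annotation of GRCm38.p6, which describes the C57BL/6J strain. In that annotation Mcpt8 and Ctsg follow the chymase Mcpt4, and Gzme, Gzmd, Gzmg, Gzmn, Gzmf, Gzmc and Gzmb come after them. The 250 bases before the annotated start are given for the 4 genes that were detected and for Gzmd, a tandem copy of Gzmc that was not. They lie at chr14:56085198-56085447 for Mcpt8, chr14:56102575-56102824 for Ctsg, chr14:56262335-56262584 for Gzmb, chr14:56234658-56234907 for Gzmc and chr14:56132594-56132843 for Gzmd. The sequences run 5′ to 3′ on the minus strand. Capitals mark matches, on either strand, to TGTGGT (RUNX factors), CAGAC (SMAD factors), TGANTCA (AP-1) or TGACGT (part of the cAMP response element, whose copies on opposite strands overlap in Gzmc).
Mcpt8: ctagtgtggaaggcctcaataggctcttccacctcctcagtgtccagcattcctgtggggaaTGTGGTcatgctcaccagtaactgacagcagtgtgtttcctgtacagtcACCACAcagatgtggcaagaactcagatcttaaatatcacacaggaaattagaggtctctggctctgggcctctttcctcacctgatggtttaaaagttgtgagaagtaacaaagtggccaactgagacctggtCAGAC
Ctsg: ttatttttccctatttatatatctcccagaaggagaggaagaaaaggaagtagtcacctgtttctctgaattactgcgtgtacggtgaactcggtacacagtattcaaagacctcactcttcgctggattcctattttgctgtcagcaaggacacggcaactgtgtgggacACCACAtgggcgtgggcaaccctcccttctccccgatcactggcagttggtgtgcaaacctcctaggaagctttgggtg
Gzmb: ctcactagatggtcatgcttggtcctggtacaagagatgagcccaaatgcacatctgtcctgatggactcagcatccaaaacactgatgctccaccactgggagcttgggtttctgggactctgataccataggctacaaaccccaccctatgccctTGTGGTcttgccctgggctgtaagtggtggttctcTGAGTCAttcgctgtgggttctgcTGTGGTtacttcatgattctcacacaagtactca
Gzmc: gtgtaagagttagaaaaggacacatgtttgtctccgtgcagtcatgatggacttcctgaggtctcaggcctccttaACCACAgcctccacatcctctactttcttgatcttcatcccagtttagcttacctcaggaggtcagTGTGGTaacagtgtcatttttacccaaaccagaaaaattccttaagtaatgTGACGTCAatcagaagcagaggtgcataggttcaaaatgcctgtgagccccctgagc
Gzmd: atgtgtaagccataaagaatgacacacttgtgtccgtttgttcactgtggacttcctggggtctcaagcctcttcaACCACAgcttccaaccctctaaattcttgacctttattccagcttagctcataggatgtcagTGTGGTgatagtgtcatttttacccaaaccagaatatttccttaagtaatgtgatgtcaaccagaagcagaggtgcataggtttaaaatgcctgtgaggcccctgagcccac

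The upstream sequences fell into a related and an unrelated set. Among Gzmc, Gzmd, Gzme, Gzmf and Gzmg, the 10 pairs were 70.2% to 94.8% identical over the aligned columns. Gzmc, detected on 2 arrays, and Gzmd, not detected by its probe set, were 80.5% identical. The other 26 pairs, which involve Mcpt8, Ctsg, Gzmb or Gzmn, had 41.9% to 49.1% identity, and Mcpt8 and Ctsg, which were high on the same arrays, had 45.2%. The RUNX letters TGTGGT were found in 8 of the 9 upstream windows, all but that of Gzmn, against 14.0% of 32851 windows of the same length in the RefSeq table. Since 5 of the 9 windows are related copies, these matches are not independent. All the letters searched here were chosen after the sequences had been seen, so the shares over all windows give no measure of enrichment. The SMAD letters were in 5 of 9 (42.2% of all windows), the cAMP response letters in 3 of 9, Gzmc, Gzmf and Gzmg (6.47% of all), and the AP-1 letters in 1 of 9, Gzmb (6.75% of all). The RBPJ letters TGGGAA, by which Notch signalling reaches DNA, and the GATA letters AGATAA were in none of the 9 windows, against 21.6% and 9.99% of all windows. A match or its lack describes these letters in this window and is no evidence on binding.

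**Figure D1:**
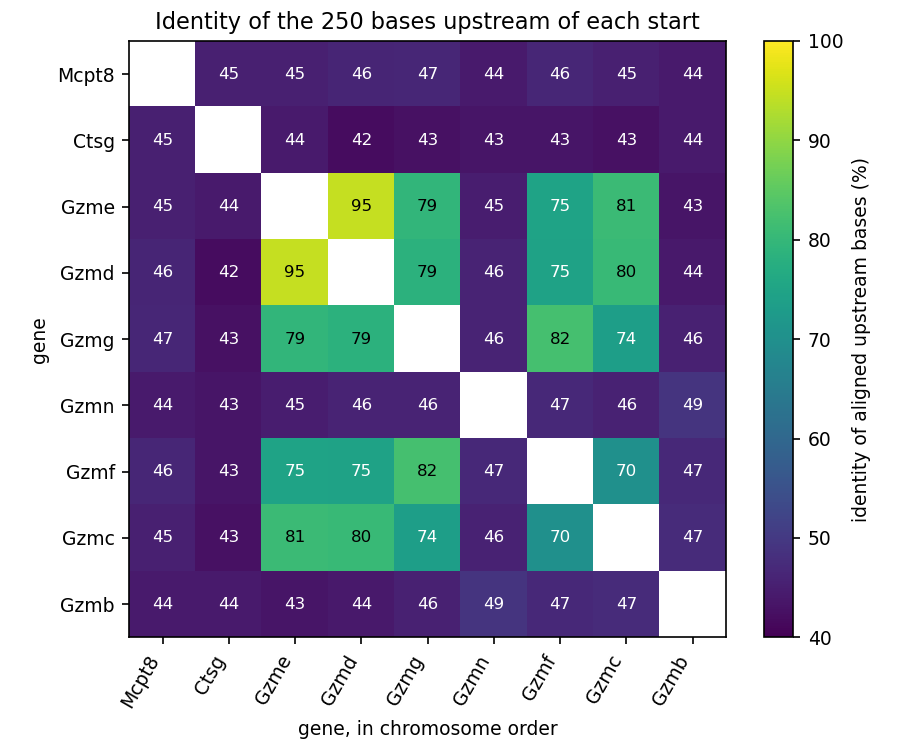
Percent identity between the 250 bases upstream of the annotated start of Mcpt8, Ctsg and the 7 granzyme genes of the locus, with genes in chromosome order on both axes and identity as colour. Gzme, Gzmd, Gzmg, Gzmf and Gzmc form a block at 70.2% or more, while all other pairs are at 49.1% or less.

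Of the 8 genes, 4 were above background on at least 1 array, and they showed 3 patterns. Mcpt8 and Ctsg were high in intestinal cells and with Dll1 and lower on the other arrays. Gzmc was below background on the TGF-β1 and control arrays, low with Dll1 and higher in intestinal cells. Gzmb was bright on all 4 arrays and moved little. The other 4 granzymes were below background throughout. In these bulk samples, fewer cells of a type and less RNA per cell cannot be told apart.

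Mcpt8 read 10.94 in intestinal mast cells, 10.89 with Dll1, 7.68 with TGF-β1 and 8.50 in control BMMCs. The intestinal and Dll1 arrays stood together above the others, and the TGF-β1 array was the lowest. Intestinal cells and Dll1-cocultured cells differed by 0.04, less than the probe set spread of 0.39 for that comparison. Relative to control BMMCs, Mcpt8 was 5.41-fold higher in intestinal cells and 5.25-fold higher with Dll1. With TGF-β1 it was 1.77-fold lower than in control cells, a difference of -0.83 that did not reach 2-fold. That was 3.44 times the probe set spread, which holds no variation between cultures. In the same comparison, the differences of Ctsg and Gzmb were 2.17 and 2.21 times the spread. Between the treatments, Mcpt8 was 9.30-fold higher with Dll1 than with TGF-β1, the 18th largest increase among 12650 genes.

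Ctsg read 8.64 in intestinal mast cells, 8.70 with Dll1, 5.93 with TGF-β1 and 5.41 in control BMMCs. It thus shared the high pair of arrays with Mcpt8, while its TGF-β1 and control values were close to the background limit. The intestinal and Dll1 arrays differed by -0.06, less than the spread of 0.39. Ctsg was 9.38-fold higher in intestinal cells and 9.79-fold higher with Dll1 than in control cells, and the Dll1 increase ranked 16th among 12761 genes. Those log2 differences, 3.23 for intestinal cells and 3.29 with Dll1, were 2.69 and 2.75 with the 99th percentile limit and 3.85 and 3.92 with 16 subtracted from every linear value, so the direction held and the size did not. TGF-β1-treated cells were 0.52 above control cells, which did not reach 2-fold, and with the 99th percentile limit the difference was -0.02, so no direction is given. Ctsg was 6.82-fold higher with Dll1 than with TGF-β1.

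Gzmc, a granzyme of activated cytotoxic cells of the mouse, read 8.12 in intestinal mast cells, 6.08 with Dll1, 4.49 with TGF-β1 and 4.51 in control BMMCs. Only the intestinal and Dll1 values were above background, and unlike Mcpt8 and Ctsg they were well apart. Gzmc was 4.11-fold higher in intestinal than in Dll1-cocultured cells, a difference of 2.04 against a spread of 0.39. It was at least 8.01-fold higher in intestinal cells than in control cells, a log2 difference of 3.00. That bound was 2.17 with the 99th percentile limit and 3.81 with 16 subtracted, past 2-fold in both. With Dll1 it was at least 1.95-fold higher than in control cells and at least 1.83-fold higher than with TGF-β1, both just under the 2-fold rule. The measured differences for those were 1.56 and 1.59, and the call depended on the background limit. With the limit at the 90th percentile of the receptor probe sets, the differences became 1.29 against control and 1.25 against TGF-β1, both past 2-fold. With the limit at the 99th percentile they became 0.13 and 0.23, well under it.

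Gzmb read 11.77 in intestinal mast cells, 12.19 with Dll1, 11.17 with TGF-β1 and 11.70 in control BMMCs. The highest value anywhere on these arrays was 13.14, so Gzmb lay 0.92 to 1.97 below the maximum of its array, and whether its probes were near saturation is not known. Intestinal and control cells differed by 0.07, less than the spread of 0.48. Gzmb was 0.48 higher with Dll1 and lower by -0.53 with TGF-β1 than in control cells, neither of which reached 2-fold. The widest gap was 2.02-fold, higher with Dll1 than with TGF-β1, and with array medians subtracted it was 0.96 on the log2 scale, under the threshold. Like Mcpt8, Gzmb was lowest on the TGF-β1 array.

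Gzmd, Gzmf, Gzmg and Gzmn lay between 4.23 and 4.60 on all arrays, near the lowest value of the whole table (4.13). Gzmd read 4.39 in intestinal cells, 4.30 with Dll1, 4.30 with TGF-β1 and 4.23 in control cells. The ranges of the 4 genes over the arrays were 0.07 to 0.30, and no fold is given because both arrays of every comparison were below background. These genes were not detectable here, which is a statement on these probe sets and not on absence. Near-identical copies can share probes, so the separate levels of Gzmd, Gzmf and Gzmg are uncertain.

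**Figure D2:**
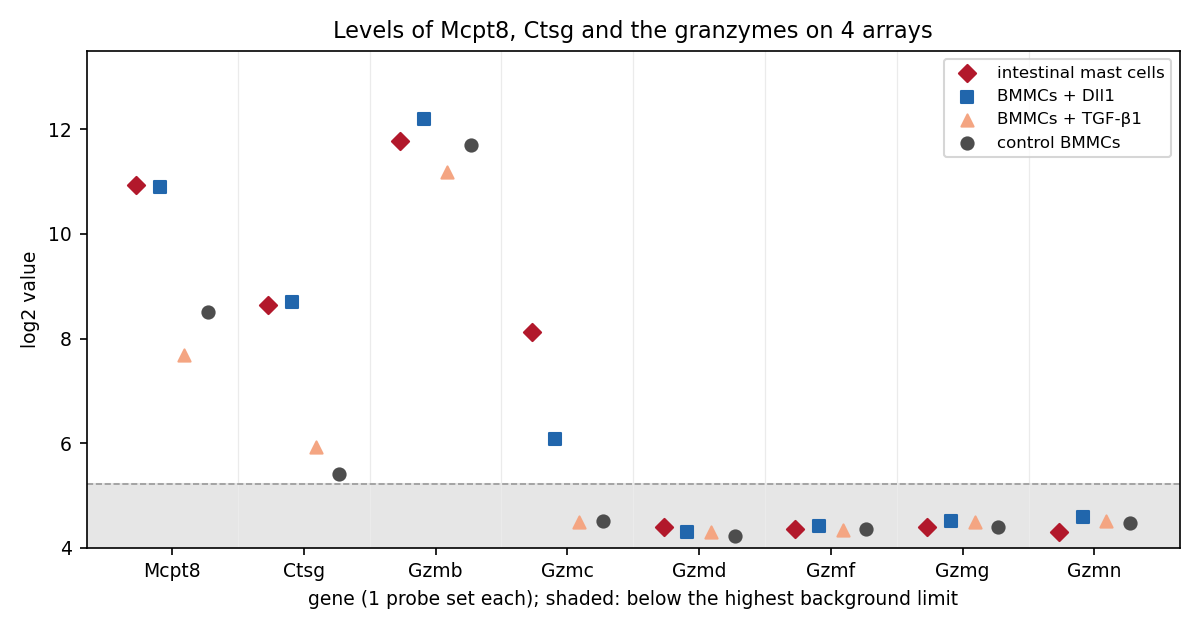
Log2 values of the 8 genes, 1 probe set each, on the intestinal, Dll1, TGF-β1 and control arrays, with the zone below the highest background limit (5.21) shaded. Mcpt8 and Ctsg have 2 high points (intestinal, Dll1) and 2 low ones, Gzmc is at 8.12 in intestinal cells, at 6.08 with Dll1 and below background on the others, Gzmb stays between 11.17 and 12.19, and the last 4 genes stay in the shaded zone.

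Counted over the 8 genes, intestinal cells had 3 higher than control cells (Mcpt8, Ctsg and Gzmc) and none lower, where 4.47% of 12722 genes above background were higher and 6.74% were lower (11.2% in either direction). The median measured difference over the 8 genes was 0.12, against 0.00 over all genes. Dll1-cocultured cells had 2 higher than control cells (Mcpt8 and Ctsg), where 1.64% of 12761 genes were higher and 1.78% lower (3.42% in either direction). Of the genes called for Dll1 against control, 47.9% were higher, or 35.6% with array medians subtracted. TGF-β1-treated cells had none of the 8 genes past 2-fold against control cells, where 0.507% of 12023 genes were higher and 0.89% lower (1.4% in either direction). At 1.5-fold, Mcpt8 alone among the 8 was called lower there. These comparisons share the control array, so their values stand side by side and do not support each other.

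Against TGF-β1-treated cells, intestinal cells had Mcpt8, Ctsg and Gzmc higher, where 4.06% of 12551 genes were higher and 4.56% lower (8.61% in either direction). Mcpt8 was 9.59-fold, Ctsg 6.54-fold and Gzmc at least 7.50-fold higher in that comparison. The Gzmc bound, 2.91 on the log2 scale, was 2.27 with the 99th percentile limit and 3.64 with 16 subtracted from every linear value. Dll1-cocultured cells had Mcpt8, Ctsg and Gzmb higher than TGF-β1-treated cells, where 2.19% of 12650 genes were higher and 1.9% lower (4.09% in either direction). Between intestinal and Dll1-cocultured cells, Gzmc was the 1 gene of the 8 past 2-fold, where 3.56% of 13035 genes were higher in intestinal cells and 4.14% lower (7.69% in either direction). Gzmb was lower by -0.42 in intestinal cells than with Dll1, close to the spread of 0.39. Since only 4 of the 8 genes could pass the background rule, these counts are not counts over 8 measurable genes.

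**Figure D3:**
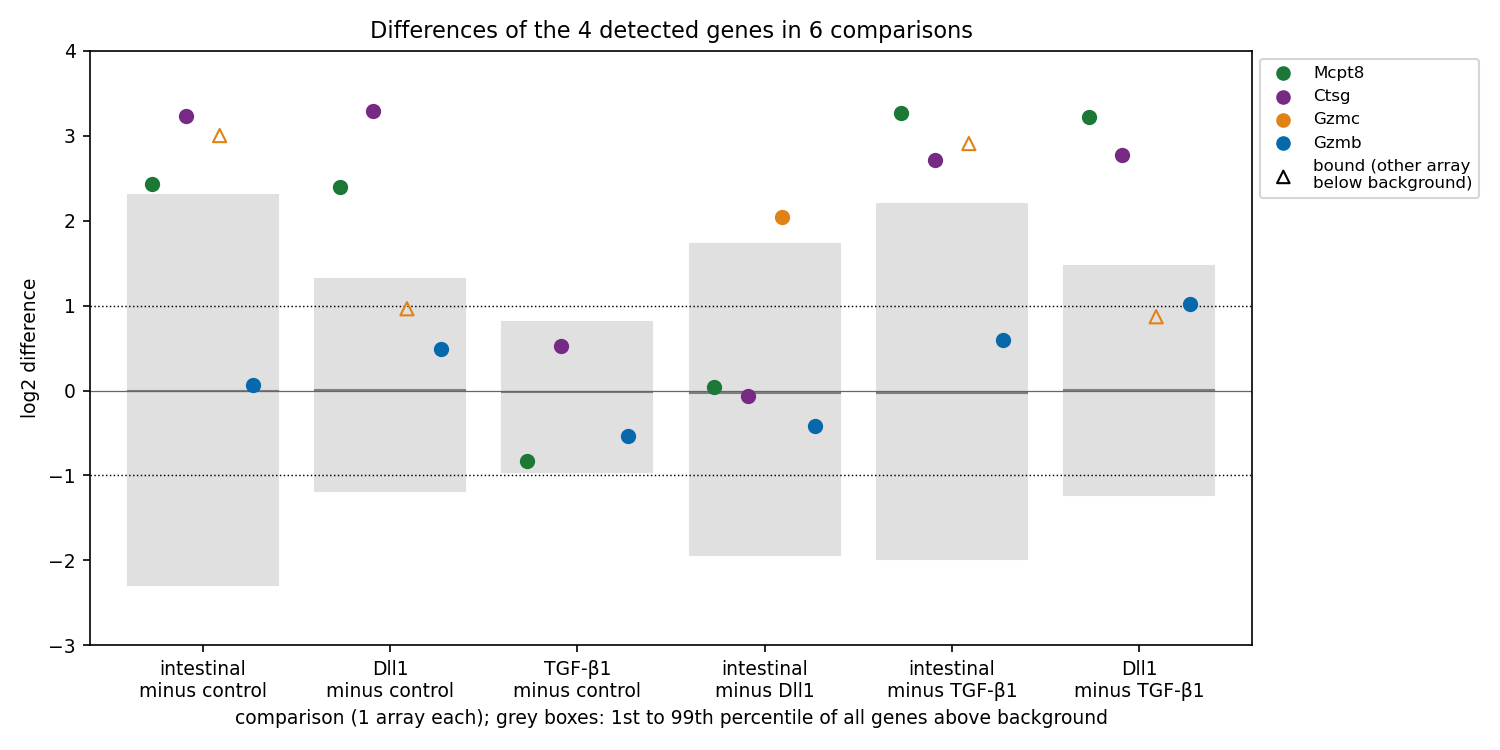
Log2 differences of Mcpt8, Ctsg, Gzmc and Gzmb in 6 comparisons of single arrays, with grey boxes from the 1st to the 99th percentile of all genes above background and dotted lines at 2-fold. Filled circles are measured on both arrays and open triangles are bounds. Mcpt8 and Ctsg lie above the box in all 4 comparisons of intestinal or Dll1 cells with control or TGF-β1 cells, and near 0 in intestinal minus Dll1, where Gzmc is at 2.04.

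Along the locus, the gene next to Mcpt8 on the other side, Mcpt4, which encodes a connective tissue mast cell chymase, had the same high pair of arrays. It read 10.41 in intestinal cells and 10.15 with Dll1 but was below background with TGF-β1 (5.04) and in control cells (4.53). Mcpt1 and Mcpt2, the chymases of mucosal mast cells, lie further along and were high with TGF-β1 as well. Mcpt1 read 12.72 in intestinal cells, 12.46 with Dll1, 12.41 with TGF-β1 and 4.82 in control cells. Hence the TGF-β1 array was high at Mcpt1 and Mcpt2 and low at Mcpt4, Mcpt8 and Ctsg. Of the 7 other genes of the locus that were measured, 5 were higher in intestinal than in control cells and 1, the chymase Cma1, was lower (31.1-fold). With Dll1 4 were higher and with TGF-β1 3, and none was lower. Over all genes, 4.47% were higher in intestinal cells, 1.64% with Dll1 and 0.507% with TGF-β1. The 7 genes had median differences from control of 3.96, 2.72 and 0.52 against 0.00, 0.02 and 0.01 over all genes. Beyond Gzmb, Atp12a and Rnf17 were below background on all arrays. The next gene, Cenpj, was above it on all arrays, at 6.27 in intestinal cells, 6.17 with Dll1, 6.79 with TGF-β1 and 6.70 in control cells.

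**Figure D4:**
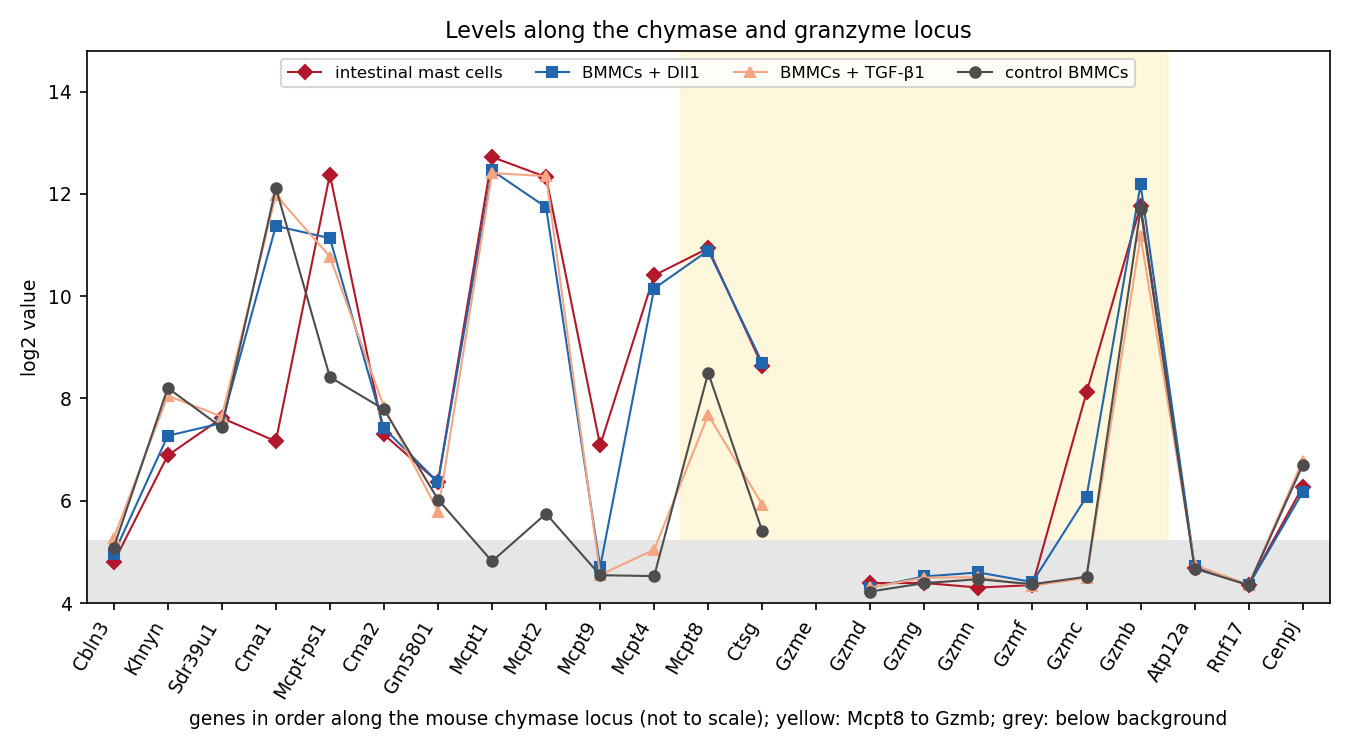
Log2 values of 23 genes in RefSeq order along chromosome 14 (not to scale) on the intestinal, Dll1, TGF-β1 and control arrays, with lines joining the genes of an array, Mcpt8 to Gzmb on yellow and the zone below background in grey. No value is drawn for Gzme, which has no probe set of its own. Intestinal and Dll1 points run together at Mcpt4, Mcpt8 and Ctsg, and 4 granzyme genes between Ctsg and Gzmc are in the grey zone.

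Among granzymes encoded elsewhere in the genome, Gzma, a tryptase-like granzyme of T and NK cells, had the stepped order of Gzmc. It read 10.33 in intestinal cells and 7.92 with Dll1, and was below background with TGF-β1 (4.50) and in control cells (4.62). Gzma was at least 37.1-fold higher in intestinal cells and at least 7.0-fold higher with Dll1 than in control cells. Gzmk was above background in intestinal cells alone (6.25), and Gzmm stayed between 5.13 and 5.31.

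Some markers of T, NK and innate lymphoid cells were high with Gzmc on the intestinal array. Of 21 measured, 6 were higher in intestinal than in control cells (Cd3e, Cd3g, Cd8b1, Ncr1, Nkg7 and Gzma) and none was lower, with a median difference of 0.53 against 0.00 over all genes. The T cell genes Cd3d (5.79 in intestinal cells), Cd8a (5.94) and Cd4 (5.32) were not called, and Cd2, Klrd1, Klrk1 and Cd160 were below background there. Of the 21, 15 were above background in intestinal cells, 6 with Dll1, 4 with TGF-β1 and 8 in control cells, with means of 6.16, 5.27, 4.95 and 5.01. The T cell receptor chain Cd3g read 8.84 and Cd3e 7.53 in intestinal cells. On the Dll1 array both were below background (Cd3g 4.51, Cd3e 4.90), while Gzmc, Gzma and the granule membrane protein Nkg7 (7.34) were above it. With Dll1, 3 of the 21 were higher than in control cells (Nkg7, Gzma and Il7r) and none was lower. The median difference was 0.03 against 0.02 over all genes. Il7r read 7.08 with Dll1 and 6.03 in control cells. The pore-forming perforin gene Prf1 read 5.89 in intestinal cells, 5.61 with Dll1, 4.88 with TGF-β1 and 5.50 in control cells and was not called in any comparison.

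Some genes listed as markers of other tissue cells were also high on the intestinal array, on which Mcpt8, Ctsg and Gzmc were high. Of 13 epithelial genes, 6 were higher in intestinal than in control cells (Cdh1, Krt8, Fabp1, Muc2, Tff3 and Lgals4), Krt8 by only 2.01-fold. Over all genes, 4.47% were higher in that comparison. Krt18, Krt20 and Fabp2 were not called, and Epcam, Vil1, Cldn7 and Phgr1 were below background in intestinal cells. The adhesion protein Cdh1 read 10.12 in intestinal cells, 6.32 with Dll1, 7.57 with TGF-β1 and 6.16 in control cells. Of 10 macrophage and dendritic cell genes, 4 were higher (Itgax, C1qa, C1qb and Csf1r), and the integrin Itgax read 11.19 in intestinal cells against 4.86 in control cells. Adgre1, Mertk, Flt3 and Xcr1 were not called, and C1qc and Zbtb46 were below background in intestinal cells. Jchain, of plasma cells, was at least 3.67-fold higher. None of these genes was called with Dll1 against control. The part of other cells in the intestinal values of Mcpt8, Ctsg and Gzmc was not tested.

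Some neutrophil and promyelocyte genes were high with Ctsg on the Dll1 array. Of 15 measured, 7 were higher with Dll1 than in control cells (Elane, Prtn3, Mpo, Ms4a3, Ngp, S100a8 and S100a9), Ly6g was 2.07-fold lower and 7 were not called, with a median difference of 1.16 against 0.02 over all genes. In intestinal cells none was higher than in control cells and Ly6g was 2.45-fold lower. Of the 15, 14 were above background with Dll1, against 6 each in intestinal, TGF-β1-treated and control cells, and the mean was 6.66 with Dll1 and 5.01, 5.06 and 5.04 on the others. Neutrophil elastase (Elane), the azurophil granule partner of cathepsin G, read 8.76 with Dll1 and was below background in intestinal cells (4.88), with TGF-β1 (4.89) and in control cells (4.87). Myeloperoxidase (Mpo) read 7.97 with Dll1 and 4.95 in intestinal cells, and proteinase 3 (Prtn3) read 7.71 with Dll1 and 5.36 in intestinal cells. Mpo was below background in intestinal cells too. The 6 of the list above background there were Prtn3, Ms4a3 (5.51), Cebpe (5.33), Mmp8 (5.40), Retnlg (5.43) and Csf3r (5.66). Ctsg read 8.64 in intestinal cells and 8.70 with Dll1, and the part of promyelocytes in these values was not tested. Of 8 measured eosinophil markers, 5 were higher with Dll1 than in control cells, among them Prg2 at 11.45 with Dll1 and 5.40 in control cells.

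Of 4 basophil genes, 2 were lower in intestinal than in control cells and 1 was lower with Dll1. The basophil protease Prss34 was below background in intestinal cells (4.87), with Dll1 (4.95) and with TGF-β1 (5.19) and read 5.74 in control cells. The surface receptor Cd200r3, shared by basophils and mast cells, read 5.13 in intestinal cells, 8.58 with Dll1, 8.80 with TGF-β1 and 8.91 in control cells. Ifitm1 read 6.38 in intestinal cells, 6.32 with Dll1, 7.37 with TGF-β1 and 8.15 in control cells, so it was lower in intestinal and Dll1-cocultured cells than in control cells, while Mcpt8 was higher. The integrin Itga2 stayed between 5.31 and 5.87. None of the 4 was called higher in intestinal or Dll1-cocultured cells than in control cells, with medians of -1.32 and -0.56.

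**Figure D5:**
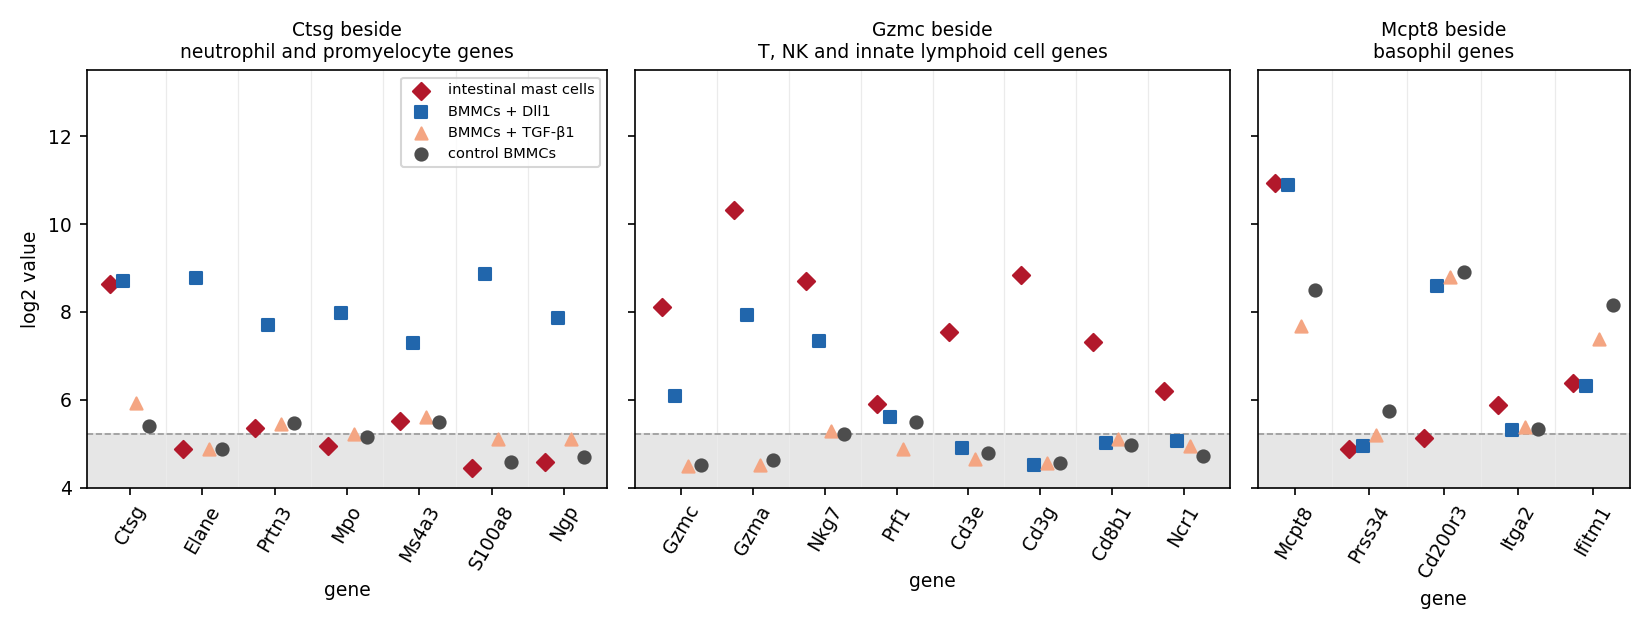
Log2 values of Ctsg, Gzmc and Mcpt8, each beside genes of a cell type known for it, on the intestinal, Dll1, TGF-β1 and control arrays, with the zone below the highest background limit shaded. The neutrophil and lymphoid genes drawn are a selection from longer lists, mostly of genes called higher on the Dll1 or intestinal array. Most listed genes that were lower or not called are left out. Elane, Mpo and S100a8 are high on the Dll1 array alone, Cd3e and Cd3g on the intestinal array alone, and Prss34 stays at or under 5.74.

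Immediate early genes, which respond quickly to handling and stimulation, were high on the same arrays as Mcpt8 and Ctsg. All 10 were higher in intestinal than in control cells and 9 of 10 were higher with Dll1, with medians of 4.66 and 2.68, while none was called with TGF-β1. Tissue digestion, sorting, bead selection and coculture differ between these arrays together with the groups and cannot be told apart from them. To look for RNA of the feeder layer, 8 genes typical of adherent cells were read. With Dll1, 4 were higher than in control cells (Dll1, Thbs1, Actn1 and Anxa2), where 1.64% of all genes were higher. Col1a1, Sparc and Fn1 were not called, and Col1a2 was below background on all arrays. Actn1 was also 2.27-fold higher in intestinal cells (6.38) than in control cells (5.20), so it does not mark feeder RNA alone. The feeder is a hamster line, and how well these mouse probe sets read its RNA was not tested. The part of feeder RNA in the values of Mcpt8, Ctsg and Gzmc was not tested either.

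The list of genes that activate, pack and sort these proteases held 7 genes. Serglycin (Srgn) stayed between 11.52 and 11.57 and cathepsin C (Ctsc) between 9.91 and 10.37. The heparin-sulfating enzyme Ndst2, needed to store mast cell proteases, read 8.48 in intestinal cells, 10.49 with Dll1, 10.93 with TGF-β1 and 11.21 in control cells, and was 6.64-fold lower in intestinal than in control cells. It was the 1 gene of these 7 that was called in that comparison, and none was called with Dll1 or TGF-β1 against control. Over all genes, 11.2%, 3.42% and 1.4% were called in these comparisons, so such counts over 7 genes say little. Cystatin F (Cst7), an inhibitor of cathepsin C, was 2.06-fold lower in intestinal than in TGF-β1-treated cells. Ndst2 was 5.47-fold lower in that comparison, where 4.56% of all genes were lower.

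Of 6 measured inhibitors, 2 were lower in intestinal than in control cells, where 6.74% of all genes were lower. None was called with Dll1 or TGF-β1 against control, where 3.42% and 1.4% of all genes were called. Serpinb1a, an inhibitor of cathepsin G and elastase, read 9.68 in intestinal cells, 11.07 with Dll1, 11.62 with TGF-β1 and 11.97 in control cells. Thus Serpinb1a was lowest in intestinal cells, where Ctsg was high, but on the Dll1 array it was not past 2-fold below control (1.87-fold). Slpi was 2.18-fold lower in intestinal than in control cells, with an intestinal value of 5.18, close to the background limit of 5.11. Serpinb9, which blocks granzyme B, stayed between 5.66 and 5.92.

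Among 10 transcription factors tied to granule protease genes, 1 was lower in intestinal than in control cells (Gata1, 3.07-fold). None was called with Dll1, and Eomes was 2.27-fold higher with TGF-β1. Over all genes, 11.2%, 3.42% and 1.4% were called in these comparisons, so such counts over 10 genes say little. Against TGF-β1-treated cells, Gata1 was 2.52-fold lower in intestinal cells. Eomes was at least 3.88-fold lower there and at least 3.84-fold lower with Dll1. Eomes, which drives granzyme genes in lymphocytes, read 4.91 in intestinal cells, 4.94 with Dll1, 7.07 with TGF-β1 and 5.89 in control cells, so it was below background on the arrays where Gzmc was detected. Runx3 read 9.22 in intestinal cells, 8.06 with Dll1, 9.21 with TGF-β1 and 8.76 in control cells and was lowest with Dll1. There it was 2.24-fold lower than in intestinal cells and 2.23-fold lower than with TGF-β1. Gata2, a factor of the mast cell and basophil lineages, stayed between 9.86 and 10.54. Cebpe, a factor of granulocyte maturation, read 6.00 with Dll1 and 4.93 in control cells.

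The genes with the most similar profiles were found by the root mean square difference of the centred log2 values over the 4 arrays, with values under background raised to the limit, among 12206 other genes. For Mcpt8 they were Dcaf5 (0.07), Emb (0.11) and Egr3 (0.23). Dcaf5 read 8.62 in intestinal cells, 8.38 with Dll1, 5.23 with TGF-β1 and 6.06 in control cells. For Ctsg they were H2-Ab1 (0.21), Dusp5 (0.28) and Egr3 (0.30). For Gzmc they were Prr5 (0.07), Ube2e2 (0.10) and Pdgfrb (0.10), and for Gzmb Gtpbp10 (0.04), Prkce (0.06) and Rlf (0.06). A profile over 4 arrays is short, and many genes can come this close.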

How the data were processed

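Biotinylated cDNA was amplified from 2 ng of RNA per sample, per the labels' protocols. For each of 4 arrays, 33793 probe sets had a log2 value as deposited. Which software and scaling the authors used is not given in the sources used here. Between arrays, values of equal rank differed by 0.06 on average and at most 0.25, so no further normalization was applied. Symbols came from the platform annotation, with 23521 probe sets of 1 symbol, 1814 of several and 8458 not listed. For a gene with several probe sets the one with the highest mean was used, and all 8 genes had the symbol RefSeq gives. Arrays carry no depth, and their number limits the precision. Python 3.11.15, pandas 2.3.3, numpy 2.4.6 and Biopython 1.88 were used. Upstream sequences came from RefSeq (GRCm38.p6) and were aligned globally (match 2, mismatch -1, gap opening -5, extension -1). The fold rule was tried on simulated data with changes planted only in genes well above background, so it says nothing on genes near the limit. The alternatives were other scalings, background limits, probe set choices, an offset and other fold thresholds. The 8 genes, the gene lists and the motifs were chosen with earlier results of these data known, and the motifs after the sequences had been seen. Khnyn, Sdr39u1, Atp12a, Rnf17 and Cenpj were picked from the genes flanking the locus. The other named genes were the 8 genes, members of the lists, and the 3 nearest profiles of each detected gene whose range was at least 1 (log2). Those profiles leave out predicted genes and small RNAs.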

Additional observations from a re-analysis of the deposited data

How the results depend on the processing

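No paired analysis was possible because each group has 1 array. Of 161 differences of single genes among the 8, under other scalings, background limits, probe set choices and, on the linear scale, 16 subtracted as an offset, none changed sign after being called and 154 kept their call. Many of the 161 could not change. Each of the 8 genes has 1 probe set, so the probe set choice left its values as they were. Mcpt8 and Gzmb lay above every background limit used, so no limit could move them. The 7 changes were Gzmb for Dll1 minus TGF-β1 (0.96 with array medians subtracted) and Gzmc for Dll1 minus control and Dll1 minus TGF-β1. Gzmc passed 2-fold with the 90th percentile limit (1.29 and 1.25), with no limit (1.56 and 1.59) and with the offset (1.46 and 1.29). With the 99th percentile limit Gzmc was 0.13 and 0.23 in those comparisons, and Ctsg for TGF-β1 minus control was -0.02. In all, 20 of the 161 differences moved by more than the probe set spread, all of Ctsg or Gzmc. At 1.5-fold, 1 of the 8 genes, Mcpt8, was lower with TGF-β1 than in control cells, Gzmc was higher with Dll1 than in control and TGF-β1-treated cells, and Gzmb was higher in intestinal than in TGF-β1-treated cells. At 4-fold Gzmb was no longer called for Dll1 minus TGF-β1. Over all genes, the offset raised the calls to 753 from 436 for Dll1 minus control, to 294 from 168 for TGF-β1 minus control and to 834 from 517 for Dll1 minus TGF-β1. At 1.5-fold and at 4-fold the calls were 3204 and 349 for intestinal minus control (1426 at 2-fold), 1581 and 67 for Dll1 minus control, 785 and 21 for TGF-β1 minus control, 2678 and 201 for intestinal minus Dll1 (1003 at 2-fold), 2584 and 269 for intestinal minus TGF-β1 (1081 at 2-fold), and 1707 and 80 for Dll1 minus TGF-β1. The offset changes dim genes most, and fold thresholds change counts by construction. Without replicate arrays, no difference has an error between samples.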

Other observations

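A further probe set of the locus is annotated to both Gzme and Gzmd and was used for neither. It read 4.34 in intestinal mast cells, 4.25 with Dll1, 4.25 with TGF-β1 and 4.30 in control BMMCs, below background on all 4 arrays, as was the probe set of Gzmd alone. On the other flank of the locus, Khnyn, a cofactor of an antiviral protein, read 6.89 in intestinal cells, 7.27 with Dll1, 8.06 with TGF-β1 and 8.21 in control cells. Sdr39u1, between Khnyn and the chymases, stayed between 7.43 and 7.65. Hdc, the histamine-forming enzyme of mast cells, shared with Mcpt8 and Gzmb its lowest value on the TGF-β1 array, with 6.90 in intestinal cells, 7.18 with Dll1, 5.68 with TGF-β1 and 6.62 in control cells. It was 2.83-fold higher with Dll1 than with TGF-β1 and 1.91-fold lower with TGF-β1 than in control cells, under 2-fold.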
